A study of Mus musculus with 2 samples.

Results

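The mitochondrial respiratory chain and the ATP synthase together carry out oxidative phosphorylation. Complex I (NADH dehydrogenase) and complex II (succinate dehydrogenase) pass electrons to coenzyme Q, complex III passes them to cytochrome c and complex IV (cytochrome c oxidase) to oxygen. Complexes I, III and IV pump protons across the inner mitochondrial membrane, and complex V, the ATP synthase, lets them flow back to make ATP. Most subunits are encoded in the nucleus, a few in mitochondrial DNA.

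The genes described here are the nuclear subunits and the complex I assembly factors whose symbols begin with Nduf, Uqcr, Cox4 to Cox8 or Atp5, together with Sdha, Sdhb, Sdhc and Sdhd. The annotation holds 96 such protein-coding genes, and 90 of them had at least 1 array probe that matched by RefSeq accession, out of 17302 genes so matched. Of the 90, 88 were well above background on both arrays, against 12855 of all genes. Not matched were Ndufa11, Ndufa4l2, Ndufaf8, Ndufb1, Ndufb4b and Ndufb4c. The naming rule leaves out cytochrome c1 of complex III and the subunits encoded in mitochondrial DNA, for which no probe was matched. Ndufa4 was counted with complex IV, of which its protein is a subunit in spite of its name. The Ndufaf assembly factors were kept apart from the complex I subunits.

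Expression was measured in mouse hybridoma cells named 1H5F9, made by fusing an antibody-producing B cell with a myeloma cell. One array held RNA of cells cultured for 4 h with 5 µg/ml of BSP-II, a peptide from the bursa of Fabricius of birds, and the other RNA of cells cultured for 4 h with 0 µg/ml. Both cultures had the same serum-supplemented medium, and both arrays carry replicate number 1. The study's design text speaks of 2 independent experiments on different cells, and the labels do not say which of them each array belongs to. With 1 array per dose there is no spread between replicates and no test, so "higher" and "lower" describe these arrays only.

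The signal of each spot was divided by the 75th percentile of its array, 356 for BSP-II and 309 for untreated, and put on a log2 scale; this is the level given below. Differences are BSP-II minus untreated, less the median difference of all 12855 genes (−0.03), and are called relative log2 differences. They were thus set at 0 for the middle gene. Agilent's own spot error, carried to a difference, was 0.20 for nearly all members. Repeat spots of 1 probe had a median SD of 0.07 over 157 probes. Neither holds the variation between cultures.

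The arrays had 27283 (BSP-II) and 24681 (untreated) probes well above background, and no gene spot was saturated. The cell type on the labels was met by its markers: all 7 plasma cell genes on the list were above background on both arrays, among them Jchain at 8.77 (BSP-II) and 8.93 (untreated). Of the 7 B lineage genes, 6 were above background on each, Pax5 being the exception. The T cell markers summed to 0.690 times the 75th percentile on the BSP-II array and 0.877 on the untreated array, against 704 and 764 for the plasma cell markers. The 4 epithelial markers were all above background and summed to 15.3 with BSP-II and 14.9 untreated, mostly through Epcam at a level of 3.75 and 3.74. The T cell sums were the highest among the other 6 cell types, which reached down to 0.210 with BSP-II and 0.246 untreated.

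Many promoters of respiratory genes are known to hold binding sites of the factors NRF1, GABP (of the ETS family) and YY1. Promoter sequences of RefSeq (build GRCm38.p6) were found for 78 of the 96 genes, in 83 windows that reach from 250 bases before to 50 bases after the annotated start. The stretches below are the 170 bases before the start of 4 members that recur in the results: the complex I subunit with the highest difference, the complex III and complex V subunits with the lowest, and the general isoform whose tissue-specific partner stood highest of all. Capitals mark matches to the NRF1 letters (GCGCA, then T or C, then GCGC) and the ETS letters CCGGAAG on either strand.
Ndufs3, chr2:90904722-90904891, minus strand: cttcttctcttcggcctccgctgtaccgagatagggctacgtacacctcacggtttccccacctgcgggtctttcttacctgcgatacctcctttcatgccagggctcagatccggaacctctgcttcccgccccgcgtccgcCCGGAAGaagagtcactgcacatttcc
Uqcrh, chr4:116075071-116075240, minus strand: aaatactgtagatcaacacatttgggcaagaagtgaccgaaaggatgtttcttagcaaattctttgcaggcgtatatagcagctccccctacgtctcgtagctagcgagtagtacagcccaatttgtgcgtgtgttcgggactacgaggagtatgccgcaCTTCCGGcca
Atp5e, chr2:174464102-174464271, minus strand: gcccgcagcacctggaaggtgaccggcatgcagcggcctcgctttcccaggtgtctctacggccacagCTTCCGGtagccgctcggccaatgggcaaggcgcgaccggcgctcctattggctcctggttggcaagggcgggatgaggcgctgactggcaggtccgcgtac
Cox6a1, chr5:115348959-115349128, minus strand: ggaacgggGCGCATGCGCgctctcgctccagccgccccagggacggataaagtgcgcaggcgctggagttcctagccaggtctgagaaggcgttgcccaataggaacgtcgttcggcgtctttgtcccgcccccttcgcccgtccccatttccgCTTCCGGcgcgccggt

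The ETS letters began 27 bases before the start in Ndufs3, 10 in Uqcrh, 102 in Atp5e and 16 in Cox6a1, where the NRF1 letters began 162 bases before it. Over all 83 member windows, the NRF1 letters were in 12 (14.5%), against 2.27% of all 32851 windows and 3.14% of those of protein-coding genes. The ETS letters were in 19 (22.9%), against 8.86% and 11.6%. The YY1 letters AAGATGGCG, whose first bases can overlap the last bases of an ETS match, were in 8 (9.64%), against 1.40% and 1.83%. The TATAAA box, searched as a contrast, was in 9 (10.8%), against 13.6% and 12.6%. Complex V had NRF1 letters in 4 and ETS letters in 6 of its 18 windows, and complex I had them in 3 and 4 of its 36. The 32 measured members with an NRF1, ETS or YY1 match had a median relative log2 difference of −0.05, and the 41 with a window but no match −0.02. A match is a run of letters, not a shown binding site.

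As a group the members differed little between the arrays, which held RNA of whole cultures, so that fewer cells making a transcript and less of it per cell cannot be told apart. Their median relative log2 difference was −0.04 (quartiles −0.09 and 0.04), and 57 of the 88 lay within 0.1 of the all-gene median, against 38% of all genes and 51.7% of the brighter genes. The term brighter covers every gene whose level reached the median of all genes, as 84 of the 88 members did. Only 2 members, Cox6a2 and Ndufs3, were higher by 1.2-fold or more with BSP-II, where 10.4% of all genes and 6.14% of the brighter genes were that much higher. Lower by 1.2-fold or more was 1 member, the dim Cox4i2, where 16.4% of all genes and 5.01% of the brighter genes were. Differences beyond their own spot error were found in 7 members, against 33.5% of all genes and 19.4% of the brighter ones. No member reached 1.5-fold, a size passed by 5.74% of all genes and 1.18% of the brighter genes.

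**Figure D1:**
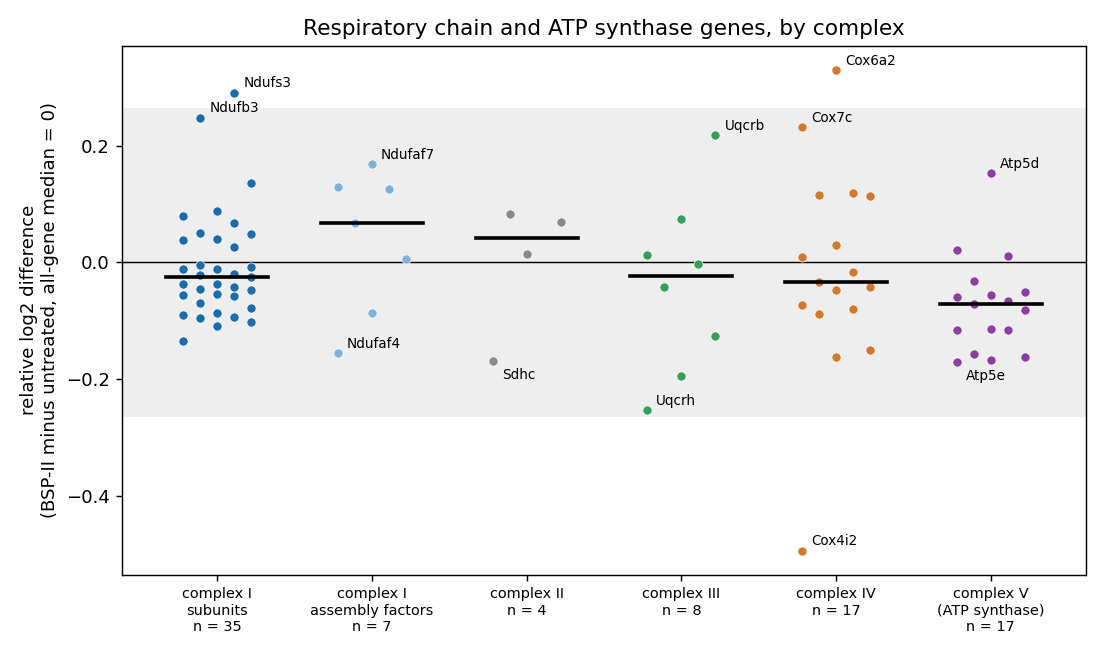
Relative log2 difference (BSP-II minus untreated, all-gene median at 0) of each of the 88 measured members, by complex; every point is 1 gene, black bars are medians and the grey band spans less than 1.2-fold either way. Only Cox6a2 and Ndufs3 lie above the band and Cox4i2 below it, and the points of complex V lie mostly below 0.

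More members lay below the all-gene median than above it, 56 against 32, where 50% of all genes and 43.6% of the brighter genes lay below. That split turned with the processing: 61 were above with no filter on dim probes, 56 with normexp background correction, and 51 without background subtraction. Leaving out the filter moved every measured member by the same amount. The members were bright, and 66 of the 88 were among the brightest 10% of all genes. There the median was −0.04 for the members and −0.02 for all 1286 genes, with SDs of 0.11 and 0.15. Of these 66 members 2 (3.03%), Cox6a2 and Ndufs3, were 1.2-fold different in either direction, against 6.61% of all genes there. Across the 84 brighter members, the difference was lower where the level was higher (Pearson's r = −0.38, Spearman's rho = −0.39). This is a correlation across genes of the same arrays, which are not independent. Members in the earlier and the later rows of the array had medians of −0.04 (52 genes) and −0.02 (36 genes). Clustered spots, those near which (within 3 rows and columns) 2 or more other spots were 2-fold off on the same side, made up 8 of the 88 members (9.09%), against 7.33% of all genes.

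**Figure D2:**
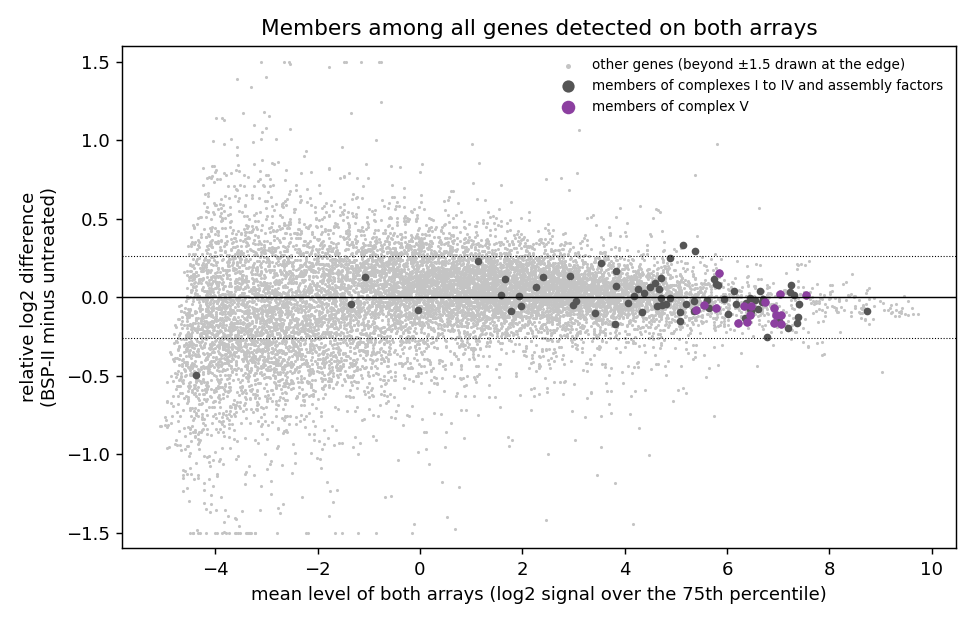
Relative log2 difference against the mean level of both arrays for the 12855 genes well above background on both; grey dots are other genes, dark dots members of complexes I to IV and assembly factors, purple dots complex V, and dotted lines mark 1.2-fold. The members sit at the bright end, where the spread of all genes is smallest, and complex V lies slightly below 0.

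Complex I had 35 measured subunits of 39 in the annotation, all of them brighter genes. Their median relative log2 difference was −0.03, and 24 lay below the all-gene median and 11 above. The difference was within 0.1 for 29 of them. Of the 7 catalytic core subunits, which carry the flavin and the iron-sulfur clusters or form the coenzyme Q site, 3 were above and 4 below, with a median of −0.01.

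Ndufs3, a core subunit of the arm that faces the matrix, had a level of 5.51 on the BSP-II array and 5.24 on the untreated array, a relative log2 difference of 0.29 (1.22-fold; spot error 0.20). It was at least 1.2-fold higher in all 12 alternative processings that gave 1 value for the gene, but rested on 1 spot. Several of these processings moved every member by the same amount or not at all, so their outcome was fixed by the reported value. Ndufv1, which binds NADH and the flavin, was at 4.68 with BSP-II and 4.66 untreated, a difference of 0.05. Thus the core held the highest complex I subunit while its partners went both ways. Ndufv2, an iron-sulfur subunit beside Ndufv1, was at 3.35 with BSP-II and 3.48 untreated (−0.10). Ndufs7 (−0.04), Ndufs8 (−0.03) and Ndufs1 (−0.01), all carriers of iron-sulfur clusters, were close to the middle of all genes.

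The Ndufb subunits, which lie in the part of the membrane arm farthest from the matrix arm, were mostly on the same side. Of the 10 measured, 9 were below the all-gene median, against 50% of all genes and 43.6% of the brighter genes. Their group median was −0.05. Ndufb3 was the exception, at 4.99 with BSP-II and 4.77 untreated, a relative log2 difference of 0.25 (1.19-fold) that exceeded its spot error of 0.20. Ndufb11, encoded on the X chromosome, was lowest of the complex at 6.27 with BSP-II and 6.43 untreated (−0.13), at a clustered spot. Ndufb8 was at 5.95 and 6.09 (−0.11) on the same arrays. Without Ndufb3, then, these subunits lay in a narrow band from −0.13 to −0.02. The side turned with the processing for complex I as a whole. Of its 35 subunits, 24 were below 0 as reported, but 9 with normexp and 8 with no filter on dim probes.

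The other accessory subunits of complex I, 18 measured of 19, all lay within 0.1 of the all-gene median and had a median of −0.01. The highest was Ndufa6 at 0.09, and the lowest Ndufa8 at −0.10, with 0.10 at its other probe. Ndufab1, the mitochondrial acyl carrier protein, was at 0.07 with −0.02 at its other probe. Ndufa13, also known as GRIM-19 for its part in interferon- and retinoic acid-induced cell death, was at −0.01.

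Of the complex I assembly factors, which build the complex and are not part of it, 7 of 8 were measured and 5 lay above the all-gene median, with a median of 0.07. Ndufaf7, a methyltransferase, was highest, with levels of 3.91 on the BSP-II array and 3.76 on the untreated array, a difference of 0.17, and its other probe gave 0.32. Ndufaf4 was lowest at 4.99 with BSP-II and 5.17 untreated (−0.16), and its other probes gave −0.16 and −0.05. Ndufaf1 and Ndufaf5 were both at 0.13. None of the 7 differences exceeded its spot error.

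Complex II, the only complex of the chain that is also an enzyme of the TCA cycle, had all 4 subunits measured. Their median was 0.04, the highest of the complexes. Of the 4, only Sdhd was among the brightest 10% of genes, against all 17 members of complex V. With genes sorted by level into groups 1 (dimmest) to 10 (brightest), all-gene medians were 0.05, 0.04 and 0.02 in groups 7, 8 and 9. In group 10 it was −0.02. Loess scaling put the complex II median at 0.0098, still the highest. The part of level in this rank was not tested. Sdha, the flavoprotein, was at 1.57 with BSP-II and 1.58 untreated, a relative log2 difference of 0.01 (other probe 0.05). Sdhb, the iron-sulfur protein, was at 3.84 and 3.80 on the same arrays (0.07). The membrane anchors differed from each other: Sdhd was at 5.81 with BSP-II and 5.76 untreated (0.08), and Sdhc at 3.72 and 3.91 (−0.17). The 4 values were within the spot error, and that of Sdhc was 0.05 after subtraction of local medians.

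Complex III had its 8 members measured, with a median of −0.02 and a wider spread than complex I, SD 0.15 against 0.09. Its larger proteins were close to the middle: Uqcrc1 at 0.07 (other probe 0.02), Uqcrc2 at −0.04, and Uqcrfs1, the Rieske iron-sulfur protein, at −0.0028. The small subunits held the extremes. Uqcrh, the hinge protein next to cytochrome c1, was at 6.65 with BSP-II and 6.93 untreated, a relative log2 difference of −0.25 (1.19-fold lower, spot error 0.20), but its other probe gave −0.01. Uqcr11 was at 7.08 with BSP-II and 7.30 untreated (−0.19), and Uqcr10 at 7.32 and 7.47 (−0.13). Uqcrb, which takes part in the coenzyme Q site, went the other way, at 3.63 with BSP-II and 3.44 untreated (0.22, 1.16-fold). Uqcrq was at 0.01. Of the small subunits, 3 were thus lower and 2 higher than the middle gene.

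Complex IV had 17 measured members of 20, with a median of −0.03. Its 11 general subunits, which are made in most tissues, had the same median, and 7 lay below the all-gene median. Cox5b and Cox5a, which lie on the side of the matrix, were lowest: Cox5b was at 7.27 with BSP-II and 7.46 untreated (−0.16), and Cox5a at 6.93 and 7.10 (−0.15). Cox7c was highest at 1.24 with BSP-II and 1.03 untreated, a difference of 0.23 (1.17-fold) beyond its spot error of 0.20. Cox6c, at a clustered spot, was at 5.79 and 5.70 (0.12). Cox4i1, through which ATP inhibits the enzyme, was at −0.02. Ndufa4 was at −0.07, Cox8a at −0.05, Cox7b at −0.03, Cox6b1 at 0.01 and Cox7a2 at 0.03, with −0.19 at its other probe. Cox7a2l, which joins complexes III and IV into supercomplexes, was at 0.12.

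Complex IV has isoforms known for particular tissues: Cox6a2, Cox7a1 and Cox8b in heart and skeletal muscle, Cox6b2, Cox7b2 and Cox8c in testis, and Cox4i2 in lung and under low oxygen. All 7 had a probe, and 5 were above background on both arrays. Cox6a2 had a level of 5.29 on the BSP-II array and 4.99 on the untreated array, a relative log2 difference of 0.33 (1.26-fold; spot error 0.20), the highest of all 88 members. Its general counterpart Cox6a1 was at 8.67 with BSP-II and 8.79 untreated, a difference of −0.09 that lay within its spot error and ranged from −0.11 to 0.0084 over 12 alternative processings. Cox6a2 was past 1.2-fold in all 12 alternative processings, by 1 probe and 1 spot. As for Ndufs3, several of the processings moved every member by the same amount or not at all.

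Of the 4 muscle markers on the list, 3 were above background with BSP-II and 2 untreated, and their summed signal was 0.617 times the 75th percentile with BSP-II and 0.334 untreated. The sum followed Myh7, the slow myosin heavy chain, at −1.05 with BSP-II and −2.49 untreated (1.47). Acta1 was at −3.64 and −3.24 on the same arrays (−0.37), Ckm was at background on the untreated array (0.01), and Myh6 was at background on both. Their part in the Cox6a2 value was not tested. The other muscle isoforms did not share the size of its difference: Cox7a1 was at −0.09 with BSP-II and 0.02 untreated, a difference of −0.08 at a clustered spot, and Cox8b was not above background on either array.

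Cox4i2 was the lowest member, with a level of −4.64 on the BSP-II array and −4.12 on the untreated array. These are signals of 14.3 and 17.8, close to the lowest signals called above background, 7.66 and 11.8. Its relative log2 difference was −0.49 (1.41-fold lower), with a spot error of 0.32, and ranged from −0.52 to −0.20 over 11 alternative processings, 8 of which kept it at least 1.2-fold lower. Among the testis isoforms, Cox7b2 was at 1.71 with BSP-II and 1.62 untreated (0.11), Cox6b2 at −1.38 and −1.31 (−0.04, clustered spot), and Cox8c was not above background on either array.

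**Figure D3:**
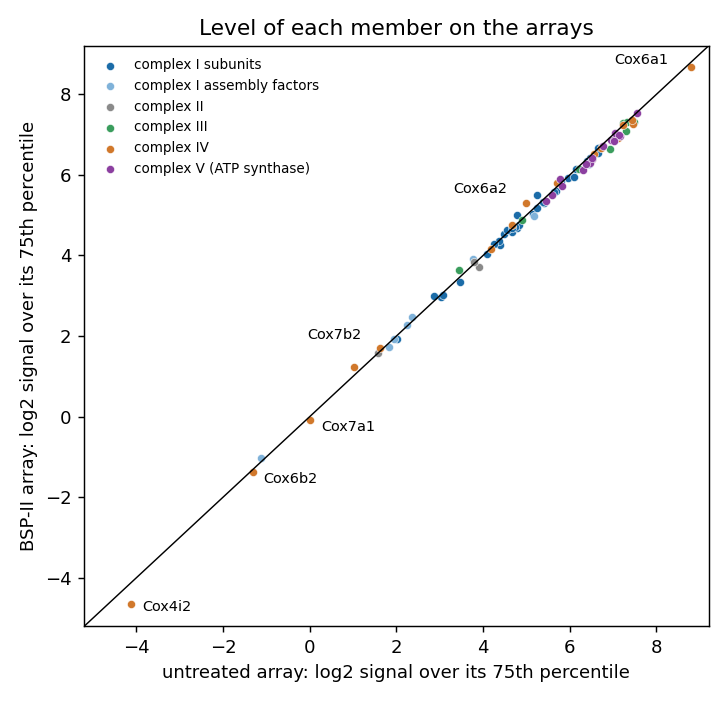
Level of each of the 88 measured members on the BSP-II array (vertical axis) and on the untreated array (horizontal axis), as log2 of the signal over the array's 75th percentile; colours mark the complex and the line marks equal levels. All members lie close to the line, Cox6a2 slightly above it and Cox4i2, at the dim end, slightly below.

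The ATP synthase had all 17 of its members measured and the lowest median of the complexes, −0.07. Of the 17, 14 lay below the all-gene median and 14 below the median of the brightest 10% of genes, to which all 17 belonged. No member was 1.2-fold different or beyond its spot error. The range was from −0.17 to 0.15.

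In the catalytic F1 head, the beta subunit Atp5b, where ATP is made, was at 7.54 with BSP-II and 7.55 untreated, a relative log2 difference of 0.01, and its other probes gave −0.05 and 0.05. The alpha subunit Atp5a1 was at 6.38 with BSP-II and 6.52 untreated (−0.11, clustered spot), with 0.02 at its other probe. Of the central stalk, the gamma subunit Atp5c1 was at −0.07, the epsilon subunit Atp5e at 6.96 with BSP-II and 7.15 untreated (−0.17, the lowest of the complex), and the delta subunit Atp5d at 5.91 and 5.78 (0.15, the highest). The central stalk thus held both ends of the range of the complex.

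Atp5g1, Atp5g2 and Atp5g3 encode the same c subunit of the rotating ring, with different import sequences. Atp5g1 was at 6.11 with BSP-II and 6.31 untreated (−0.17), Atp5g2 at 6.88 and 7.02 (−0.12, other probe 0.07) and Atp5g3 at 7.04 on both (0.02). The peripheral stalk, which holds the head in place, was below the all-gene median in all 4 subunits. Atp5j was at −0.16, Atp5h and Atp5o were both at −0.06, and Atp5pb, the b subunit, was at −0.03. The Atp5h spot was clustered, and its other probe gave −0.00026. With normexp, Atp5o and Atp5pb were both at 0.02, while Atp5j and Atp5h stayed below 0. The 5 small membrane subunits were also below the all-gene median as reported, with a median of −0.08. Among them were Atp5j2 at 6.29 with BSP-II and 6.47 untreated (−0.16) and Atp5mpl at 6.98 and 7.13 (−0.12, clustered spot).

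The median of complex V less that of complex I was −0.05 as reported. Of the 13 alternative processings, 5 move the values of both complexes by the same amount and so leave this gap as it is. In the other 8, which could have changed the order, the median of complex V was the lowest and that of complex II the highest of the 5 complexes, and the gap ranged from −0.05 to −0.03. All of them start from the same arrays, and complex II rests on 4 genes. Where all 17 complex V genes were measured, the number with a difference below 0 ranged from 7 with median scaling to 16 with 75th percentile scaling. Both were taken without setting the all-gene median to 0. Of all genes, 32.3% were below 0 with that median scaling and 55.3% with that 75th percentile scaling.

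**Figure D4:**
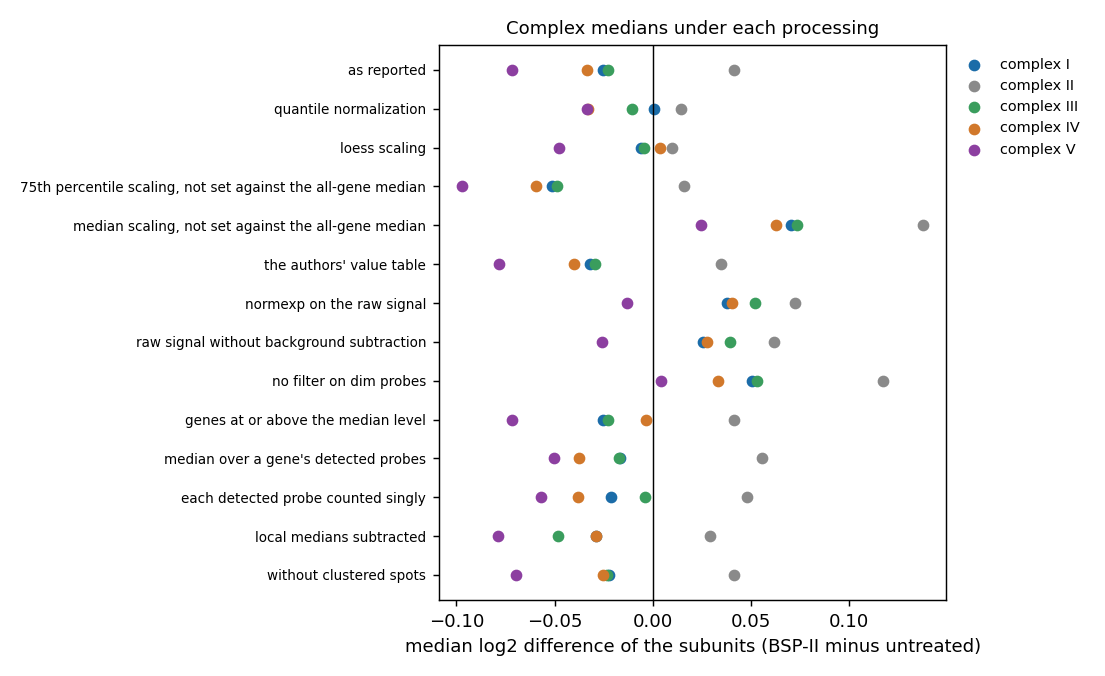
Median log2 difference (BSP-II minus untreated) of the subunits of each complex under the reported processing and 13 alternatives, 1 row each; colours mark the complexes. The medians move together to either side of 0, with complex V leftmost and complex II rightmost; in 5 of the alternatives complexes I and V shift by the same amount, so that only the other 8 could have changed their gap.

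Other probes gave a check on single members. Of the 90 members with a probe, 18 had more than 1, with 23 further probes, all above background on both arrays. In 14 the other probe lay on the same side of the all-gene median as the probe reported and in 9 on the opposite side, and the median gap was 0.07 (largest 0.29). Ndufs3, Ndufb3, Cox6a2, Cox7c, Uqcrb and Cox4i2 had no second probe.

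Genes that serve the chain without being named by the rule were taken from lists. The 19 measured assembly factors of complex IV insert its haem and copper or stabilise its mitochondrial messengers. They had a median of 0.08, and 16 lay above the all-gene median, against 50% of all genes and 56.4% of the brighter genes. None was 1.2-fold different, against 26.8% of all genes and 11.2% of the brighter genes, to which 15 of the 19 belonged. Cox18, which inserts the second subunit into the membrane, was highest at 0.25, and Cox20, its partner, was at 0.20. Surf1, needed for haem insertion, was lowest at −0.08, and Coa3 was at −0.06. The subunits of complex IV had 10 of 17 below the all-gene median. Their median levels were 5.79 (BSP-II) and 5.70 (untreated), against 3.34 and 3.31 for the factors. The part of level in this contrast was not tested.

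The 9 measured complex I assembly factors with other names had a median of −0.01. Timmdc1 (−0.30) and Lyrm2 (−0.27) were at least 1.2-fold lower and beyond their spot errors, and Ecsit (0.10) and Tmem186 (0.07) were highest. Of all genes, 16.4% were that much lower and 33.5% were beyond their spot errors. Timmdc1 was at a level of −1.48 with BSP-II and −1.16 untreated, and Lyrm2 at 0.16 and 0.46. The 4 complex II factors were all above the all-gene median (median 0.11), from Sdhaf2 at 0.02 and Sdhaf4 at 0.06 to Sdhaf1 and Sdhaf3, both at 0.16. Complex III factors had a median of −0.08 over 4 genes, with Ttc19 and Uqcc1 both at −0.13, Uqcc2 at −0.02 and Bcs1l, which inserts the Rieske protein, at 0.10. Complex V factors had a median of −0.01 over 4 genes, from Tmem242 at −0.03 and Tmem70 at −0.02 to Atpaf1 at 0.01 and Atpaf2 at 0.12.

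Among the 14 measured electron carriers and genes of coenzyme Q synthesis the median was −0.01. Coq8a, an atypical kinase needed for coenzyme Q synthesis, was highest, at 0.17 with BSP-II and −0.30 untreated (0.50, 1.42-fold). Etfdh, which feeds electrons from fatty acid oxidation into coenzyme Q, was at 0.27, and Cycs, cytochrome c itself, at −0.08. The testis cytochrome c Cyct was lowest at −0.50, near background, and Pdss1 was at −0.20 at a clustered spot. The 11 measured regulators of mitochondrial biogenesis had a median of −0.02. The nuclear receptor Esrra was highest at 0.27, Pprc1 was at 0.11, Nrf1 at 0.08, and the mitochondrial transcription factors Tfb2m and Tfam were lowest at −0.24 and −0.12. Ppargc1a was not above background on either array.

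Neighbouring pathways were set beside the chain as a description. The 78 mitochondrial ribosomal proteins had a median of 0.01, with 42 above the all-gene median and none 1.2-fold different. Mrps36 (0.17) and Mrpl38 (0.14) were the highest, and Mrps12 (−0.25) and Mrpl18 (−0.24) the lowest. The 17 TCA cycle and pyruvate dehydrogenase enzymes had a median of 0.03, with 10 above and 2 at least 1.2-fold higher. All 17 were brighter genes, of which 56.4% lay above the all-gene median. At least 1.2-fold higher were 10.4% of all genes and 6.14% of the brighter genes. Dld (0.45) and Pdha1 (0.27) were the highest, and Mdh2 (−0.13) and Idh3g (−0.12) the lowest. The 17 core glycolytic enzymes had a median of 0.18 and all lay above the all-gene median. Eno2 at 1.07 and Pfkp at 0.38 were highest, and Pgam1 at 0.01 and Ldha at 0.04 lowest. Eno2 was the dimmest of the 17, at a level of −2.02 with BSP-II and −3.06 untreated (spot error 0.23). Dim genes spread more: the SD of all genes was 0.25 to 0.44 in level groups 1 to 5, against 0.15 in group 10. At least 1.2-fold higher were 4 of the 17, where 10.4% of all genes were. The 88 chain members had 32 above.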

How the data were processed

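Per the submitters' processing notes, the scanned 1-colour (Cy3) arrays were read with Agilent Feature Extraction 10.5.1.1. The intensity values are, per the file headers, a background-subtracted processed signal with its error and the raw median brightness of each spot and its surroundings. The flags (unit "other", per the file headers) mark spots that are outliers, saturated or well above background. The authors' value table is on a log2 scale and centred per array; the rule for its centring is not given in the sources used. It served as an alternative only.

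Control spots were left out, as were 189 outlier spots (flagged on one array or both). Log2 processed signals were set against the 75th percentile of the array, and spots of 1 probe averaged. A probe counted as above background where most of its spots did. Accessions without versions were matched to RefSeq transcripts of GRCm38.p6 (names and promoters only, since the arrays' grid was made for mm9): 25091 of 41163 probes (61.0%) matched. A gene was its probe with the highest mean level. The number of arrays, 1 per group, limits the precision, and no test was made.

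The members and lists were chosen with earlier results of these data known. Not every member's values are reported here; the text gives both levels mainly for the extremes of each complex, members 1.2-fold different or beyond their spot error, and tissue isoforms, and values for the 2 highest and lowest genes of each list. The steps were tested on simulated data with known shifts. Alternatives changed the scaling, background correction, dim-probe filter, probe rule, array position and membership. Python 3.11.15, numpy 2.4.6, pandas 2.3.3, statsmodels 0.14.6 and limma 3.58.1 (normexp, offset 50, on the median signal) were used.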

Additional observations from a re-analysis of the deposited data

How the results depend on the processing

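Processings shifted the complex medians by as much as their own size: those of complexes I, III, IV and V were below 0 in some settings and above it in others, while that of complex II stayed above 0. A value counted as moved when it shifted by more than 0.07, the median SD of repeat spots, and a count when it changed over 1.5 times. With each array scaled to its own median and the all-gene median not set to 0, the medians were 0.059 for all members, 0.071 (complex I), 0.14 (II), 0.073 (III), 0.063 (IV) and 0.025 (V), 70 members were above 0, and 6 were at least 1.2-fold higher. With no filter on dim probes they were 0.050 (I), 0.12 (II), 0.053 (III) and 0.0044 (V), with 61 above, 5 higher and 3 lower by 1.2-fold. With normexp complex III was at 0.052, with 56 members above, 4 higher and 0 lower. Without background subtraction 51 were above, 4 higher and 0 lower. Of all genes, 32.3% were below 0 with that median scaling, and 50% with no dim-probe filter, with normexp and without background subtraction. The shares of all genes past 1.2-fold in these settings are not given here, so these counts of members have nothing beside them. Median scaling and the missing dim-probe filter only moved the zero point of the measured members, by the same amount for each. The causes of the other shifts were not tested. At least 1.2-fold lower were 0 members with loess scaling, 0 among brighter genes, where Cox4i2 is no longer included, and 2 with 75th percentile scaling alone. By construction the 1.1-fold threshold counted more members (7 higher, 11 lower) and 1.5-fold fewer (0 and 0). All other planned settings kept these medians and counts within those limits. Of 1044 values of single members, 803 moved by less than 0.07 and 241 by more, and none of the 3 members past 1.2-fold changed sign. Median scaling and the missing dim-probe filter each moved every member by a constant above 0.07, so these moves were fixed beforehand. In 75th percentile scaling alone, the authors' table and the brighter-gene setting, members moved by a smaller constant or not at all. The tally therefore says little about the stability of single members. For complex IV, leaving out tissue isoforms was added after seeing the data and gave −0.02. No paired analysis was possible because each dose had 1 array. Dim members such as Cox4i2 were limited by signal over background, and for all members the single array per dose was the limit.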
